A study of Mus musculus with 4 samples.

Results

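In mouse lung cells labelled as lacking Dnmt1, 56 genes that carry only a placeholder name were read in both mutant libraries and were silent or nearly silent in both wild-type libraries. They were chosen from the read counts themselves. Each has a symbol made of Gm and a number or ending in Rik, at most 3 reads summed over the 2 wild-type libraries, and at least 20 reads in each of the 2 mutant libraries. The table held 12358 such Gm and Rik rows among 31247 rows in all, and 65 genes with other names met the same read limits. Since the limits used the mutant and wild-type reads, the difference between the genotypes is described for these genes and was not tested.

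The RNA came from cells with Pdgfrb-GFP signal, called myofibroblasts in the labels, that were sorted from the lungs of mice on postnatal day 7. The wild-type group (WT, 2 libraries) has the genotype Wild type PDGFRb-GFP. The conditional knockout group (CKO, 2 libraries) carries the same reporter together with Tbx4-rtTA, Tet-O-Cre and the Dnmt1 alleles written Dnmt1-D/D, which occur only in this group. In this system the Tbx4 lung mesenchyme enhancer drives a doxycycline-dependent activator, which switches on Cre, and Cre removes a part of Dnmt1. Cells in which Cre did not act keep Dnmt1, and the timing of doxycycline is not given in the sources used here. The libraries are called WT A, WT B, CKO A and CKO B, with letters that carry no pairing, and the labels do not say whether the mice shared a litter. The name of the WT A column begins with another number than those of the other 3, which begin alike, so that a value given without WT A is also the value within that shared number. What the number stands for is not given.

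DNMT1 copies DNA methylation onto the new strand when a cell divides, so that a methylated promoter stays methylated in the daughter cells. In somatic tissues this mark is known for keeping germline genes, some genes of the X chromosome and many retrotransposons silent. Gm symbols stand for predicted genes and Rik symbols for RIKEN cDNA clones. Many of them mark noncoding transcripts, pseudogenes or pieces of repeated sequence whose role has not been described.

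Sequence that recurs between members is shown by Gm44380, a single-exon transcript of 293 bases on the plus strand at chr6:4367774-4368066 (GRCm38, GENCODE M21). It is printed because it matches other genes that were read in the CKO. The capitals mark bases 44 to 149, a stretch of 106 bases held without a mismatch, in either orientation, by the 5 other genes of the 56 that align with Gm44380 over its whole length, which are Gm37375, Gm38226, Gm42605, Gm42860 and Gm43798. Gm38226 on chromosome 9 holds all 293 bases exactly in the same orientation. Gm42605 on chromosome 5 holds them as the reverse complement of the printed letters.
Gm44380: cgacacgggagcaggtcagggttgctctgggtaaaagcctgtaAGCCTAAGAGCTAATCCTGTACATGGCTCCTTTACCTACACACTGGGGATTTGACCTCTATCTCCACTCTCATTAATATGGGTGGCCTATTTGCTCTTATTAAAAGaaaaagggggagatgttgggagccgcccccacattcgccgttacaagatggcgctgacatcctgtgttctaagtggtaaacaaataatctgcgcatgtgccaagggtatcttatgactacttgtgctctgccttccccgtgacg

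Some other genes of the set have RefSeq promoter windows (GRCm38.p6, 250 bases before to 50 after the start), and 4 of them show how different these annotated starts are. Gm364 is shown because it had the most reads, and capitals mark CACGTG, the E-box letters. In Gm4779, which shares this stretch with its divergent partner 8030474K03Rik, capitals mark each of 22 CpG. In Gm30835, which starts beside Steap4, they mark 14 CpG. In Gm7579, which lies among keratin-associated protein genes, they mark TATAAA. The windows lie at chrX:57408899-57409198 on the plus strand, chrX:101794396-101794695 on the minus strand, chr5:7960343-7960642 on the minus strand and chr7:142211567-142211866 on the plus strand.
Gm364: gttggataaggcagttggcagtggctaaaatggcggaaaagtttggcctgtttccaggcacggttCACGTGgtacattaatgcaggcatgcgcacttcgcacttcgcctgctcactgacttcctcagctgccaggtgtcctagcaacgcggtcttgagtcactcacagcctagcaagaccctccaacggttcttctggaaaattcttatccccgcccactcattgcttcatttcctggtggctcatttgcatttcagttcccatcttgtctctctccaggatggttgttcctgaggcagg
Gm4779: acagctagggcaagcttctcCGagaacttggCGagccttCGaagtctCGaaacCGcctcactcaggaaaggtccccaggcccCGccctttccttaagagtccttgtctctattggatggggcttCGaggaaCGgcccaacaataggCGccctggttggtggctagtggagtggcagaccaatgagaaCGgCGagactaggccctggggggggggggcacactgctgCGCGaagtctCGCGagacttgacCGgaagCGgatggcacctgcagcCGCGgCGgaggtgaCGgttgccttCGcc
Gm30835: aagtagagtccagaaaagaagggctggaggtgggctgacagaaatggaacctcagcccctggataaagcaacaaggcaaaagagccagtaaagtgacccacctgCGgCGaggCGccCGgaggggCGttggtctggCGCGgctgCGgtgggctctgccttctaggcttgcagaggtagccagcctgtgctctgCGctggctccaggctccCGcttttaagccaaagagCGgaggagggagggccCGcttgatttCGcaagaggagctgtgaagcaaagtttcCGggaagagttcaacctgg
Gm7579: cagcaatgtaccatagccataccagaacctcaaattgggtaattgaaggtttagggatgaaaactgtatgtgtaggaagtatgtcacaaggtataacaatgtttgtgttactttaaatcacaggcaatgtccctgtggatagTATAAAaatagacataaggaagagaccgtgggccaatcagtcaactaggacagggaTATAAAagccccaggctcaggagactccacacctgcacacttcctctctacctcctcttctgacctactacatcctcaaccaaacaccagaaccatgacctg

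The libraries were of similar depth, from 23071657 to 26420648 counted reads, and 1 read was worth 0.0377 to 0.0439 CPM (reads scaled to a common library size with TMM factors). WT B had reads on 27643 genes and the other libraries on 21883 to 22532. Of the markers of the sorted cells, 9 of 9 mesenchyme genes were read in all libraries, with a summed level of 58703 to 75938 CPM. None of them was called. Pdgfrb had 507, 477, 374 and 317 CPM in WT A, WT B, CKO A and CKO B. Its log2 change was -0.51 (adjusted p = 0.0546, edgeR). Pdgfra, Tbx4 and Myh11 also had negative log2 changes, from -0.60 to -0.36. Eln, Col1a1, Col3a1, Acta2 and Tagln had positive ones, from 0.11 to 0.58. The summed level was 60.0 to 110 CPM for 4 endothelial markers and 37.0 to 130 CPM for 5 epithelial markers. Dnmt1 itself had 3279 and 3060 reads in WT A and WT B and 2053 and 684 in CKO A and CKO B (log2 change -1.27, SE 0.57, adjusted p = 0.310, edgeR quasi-likelihood test over all genes). Leaving out CKO A gave a log2 change of -2.11, and leaving out CKO B gave -0.72. Each of these fits has 1 CKO library and holds no spread between CKO libraries, so no call is read from it. The level was lowest in CKO B, and the reads do not show whether the deleted part itself was lost. CKO A alone had reads of Y-linked genes, such as 2494 of Ddx3y, and had 4310 Xist reads where the others had 17783 to 25056.

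Together the 56 genes took 10 and 22 reads in WT A and WT B, against 5425 in CKO A and 10249 in CKO B. That was 0.0205% of the reads of CKO A and 0.0435% of those of CKO B. In WT, 35 of the genes had no read at all, 12 had 1 read, 7 had 2 and 2 had 3. All 56 passed the filter on low counts, through their CKO reads, and all 56 were called higher in CKO by edgeR, where 4.85% of all 15210 tested genes were called higher and 7.61% in either direction at an adjusted p under 0.05. DESeq2 also called all 56 higher, beside 5.46% of the genes it tested, and limma-voom called 45, beside 3.96%. The rule chose the genes by this same contrast, so nothing is read from these counts. The median fitted log2 change was 8.67 over the 56 genes and -0.01 over all tested genes, and with WT at or near 0 the fitted value depends on the prior count. The authors' deposited table gives log2 changes of 5.62 to 13.05 for the same genes.

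By the types given in the table the set was mostly noncoding. It held 22 long noncoding RNAs (39.3%, against 40.1% of all Gm and Rik rows) and 14 TEC entries (25% against 17.1%), a class for transcripts that still await experimental proof. Processed pseudogenes, the retrocopies of spliced messenger RNAs, numbered 6 (10.7% against 26.6%). Protein-coding entries numbered 7 (12.5% against 5.54%), and 2 more were coding genes listed under nonsense-mediated decay. The remaining entries were 3 pseudogenes without a subclass and 2 unprocessed pseudogenes. The strands were even, with 28 genes on each. The median length in the table was 1432.5 bases against 1101 for the other Gm and Rik rows and 4083 for the 65 named genes, and the range ran from 166 bases in Gm43940 to 12077 bases in Gm15262. A single exon made up 24 of the 56 genes (42.9%), against 54.5% of the other Gm and Rik rows and 6.15% of the named genes.

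The genes were spread over 15 chromosomes. Chromosomes 5 and X held 8 each, chromosome 7 held 6, chromosomes 1 and 9 held 4 each, and chromosomes 14, 15, 17, 18, 19 and Y held none. The X share was 14.3% (exact 95% binomial interval 6.38 to 26.2), where 3.55% of all Gm and Rik rows lie on the X. For chromosome 5 the shares were 14.3% and 7.93%. Among the 65 named genes within the same limits 18 were X-linked, or 27.7%. These shares are descriptions, since members that share a sequence or a start are not independent.

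**Figure D1:**
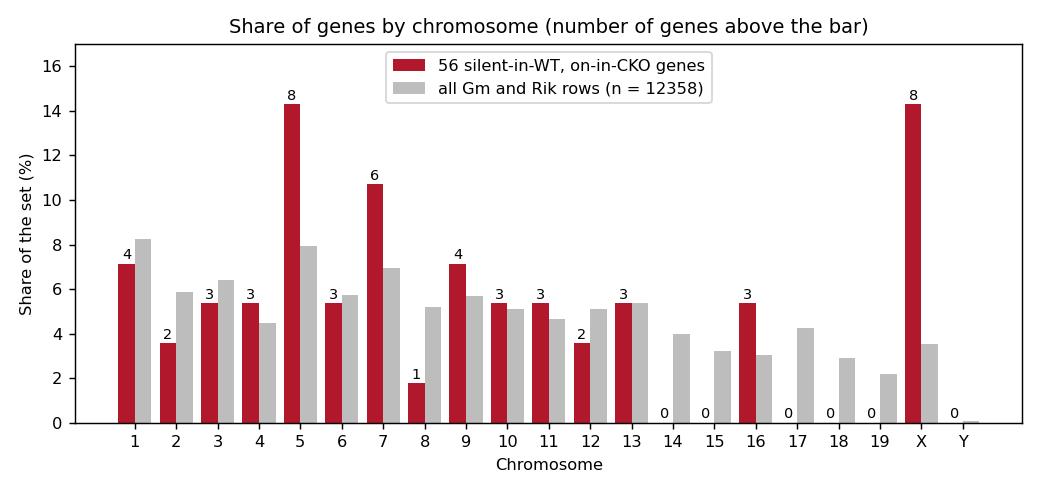
Share of genes on each chromosome, in percent, for the 56 Gm and Rik genes (red, number of genes above each bar) and for all 12358 Gm and Rik rows of the table (grey). Chromosomes 5 and X hold 8 genes each, and the bar for X is 14.3% against 3.55%.

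Few of the genes were neighbours. Joining genes that lie within 500 kb of each other gave 4 pairs with 8 genes, and each pair also lay within 100 kb. The first pair is Gm12691 and Gm12692 on chromosome 4, both on the minus strand and both annotated in GENCODE as pseudogenes, although the table types Gm12691 as a long noncoding RNA, 84484 bases apart, with 52 and 52 reads in CKO A and CKO B for Gm12691 and 44 and 72 for Gm12692. On chromosome 7, Gm45121, a long noncoding RNA, and Gm7258, a processed pseudogene, lie 2636 bases apart on the minus strand. Gm45121 had 1, 2, 217 and 408 reads in WT A, WT B, CKO A and CKO B, and Gm7258 had 0, 0, 21 and 36. The pair was therefore uneven, with most reads on the longer gene.

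The remaining pairs share a start region or exons. Gm16570, a processed pseudogene on the minus strand of chromosome 12, and Gm16572, an antisense transcript on the plus strand, overlap in their exons inside the gene of Med6, a subunit of the Mediator complex. Gm16570 had 0, 0, 194 and 336 reads and Gm16572 had 0, 0, 91 and 171. Whether counting used the strand is not known from the sources used here, and reads of these 2 genes cannot be told apart. Gm4779 and 8030474K03Rik on the X chromosome run away from each other, with annotated starts 233 bases apart and promoter windows that overlap by 290 of 300 bases. Gm4779 had 1, 0, 371 and 598 reads and 8030474K03Rik had 3, 0, 155 and 224, so both directions of 1 start region were read in the CKO. Gm38279 and Gm2109 on chromosome 9 fell just outside the distance, 515698 bases apart.

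The level of the 56 genes in the CKO was low to moderate. The median of the CKO means was 3.82 CPM, and 3.84 CPM for the 65 named genes within the same limits. The median was 2.25 CPM in CKO A alone and 5.85 CPM in CKO B alone. Gm364, a protein-coding entry with 17 exons at chromosome X, 57409154 to 57488767, had 0 and 0 reads in WT and 726 and 1330 in CKO A and CKO B. It stood at 42.5 ± 21.03 CPM in the CKO (SD, n = 2), at least 683-fold above the 3 reads that a WT count of 0 allows for the group. Gm4779 followed at 19.96 ± 8.26 CPM (SD, n = 2), with a CKO to WT ratio of 966 (exact 95% interval 173 to 38185, counting error only). Both genes are X-linked, and both CKO libraries lay far above both WT libraries.

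The next levels belonged to autosomal genes of several kinds. Gm15930, an unprocessed pseudogene at chromosome 7, 3756905 to 3764030, had 0, 0, 267 and 468 reads (15.2 ± 7.09 CPM, at least 244-fold). Gm38279, a TEC entry, had 0, 2, 208 and 468 reads (14.1 ± 8.68 CPM, ratio 337, interval 92.9 to 2787). Gm2109, a long noncoding RNA with 3 exons, had 0, 0, 175 and 374 reads (11.4 ± 6.70 CPM, at least 182-fold). From Gm15930 to Gm2109 the SDs were as large as the gaps between the means, so their order is not settled. Gm28321, a noncoding RNA of chromosome 1, had 2, 0, 194 and 333 reads, and Gm29084 on the same chromosome had 0, 1, 167 and 304. In Gm49701 on chromosome 16 the reads were 0, 1, 132 and 329, and in Gm7579 on chromosome 7 they were 0, 0, 169 and 275. The CKO reads of these 4 genes lay close together in each library.

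Gm11427, a long noncoding RNA in the table and a pseudogene in GENCODE, lies on chromosome 11 and resembles a Schlafen gene in sequence. It had 0, 0, 138 and 291 reads. Its exons overlap AI662270 on the same strand, which had 0, 1, 102 and 163 reads and meets the same limits among the named genes, so some reads may have been assigned to either. Gm44380 had 0, 0, 123 and 234 reads, 4930550L24Rik had 0, 0, 133 and 202, and Gm36954 had 0, 0, 93 and 196. None of these 3 had a WT read. The last of the 20 genes with the most CKO reads were B530045E10Rik with 0, 2, 84 and 177, Gm42860 with 0, 2, 97 and 157, and Gm14149 with 0, 2, 70 and 170. All 20 had CKO reads above WT reads, as the limits require.

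**Figure D2:**
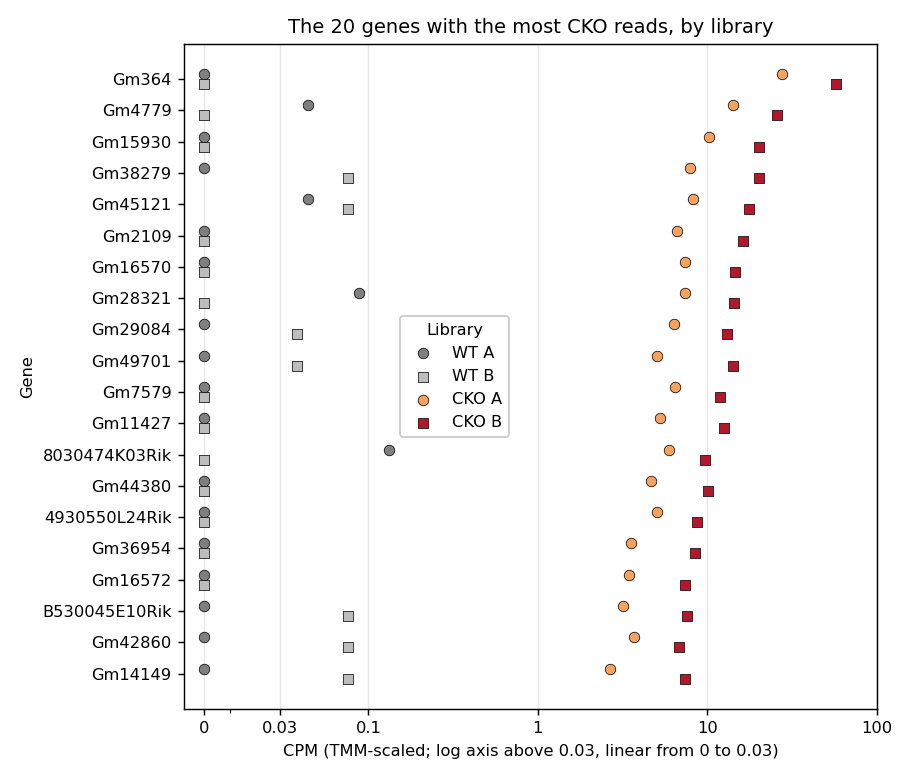
Level of the 20 genes with the most CKO reads in each library, in TMM-scaled CPM on an axis that is logarithmic above 0.03 and linear below, with 1 symbol per library (grey for WT, orange and red for CKO, circles for A and squares for B). Gm364 is the highest gene in both CKO libraries, every CKO B symbol lies to the right of its CKO A symbol, and all WT symbols lie near 0.

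Levels of different genes can be compared only per length. On the RPKM scale, which divides CPM by the length in kilobases, and over the 2 CKO libraries, the 56 genes had a median of 3.08 and the 65 named genes 1.27. Gm44380 at 25.1, Gm16570 at 25.03, Gm364 at 19.6, Gm16572 at 19.3 and Gm43940 at 18.9 were the highest on this scale. Of these only Gm364 is longer than 500 bases, and values of transcripts shorter than a sequenced fragment are uncertain. Gm15262, the longest gene with 12077 bases and 19 exons, had 0, 1, 27 and 50 reads and stood at 0.132 RPKM.

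The limits left genes close on both sides. The genes just inside the CKO limit were Gm371 with 21 and 55 reads in CKO A and CKO B, Gm7258 with 21 and 36, and Gm42605 with 22 and 46. Just outside lay Gm11751 with 19 and 40, Gm42634 with 19 and 43, and 1700029P11Rik with 18 and 35. With 4 WT reads in place of 3, Gm18336 (59 and 108 CKO reads), Gm18517 (63 and 118) and Gm2792 (176 and 431) were left out. Only 5 of the 56 genes had more CKO reads than Gm2792, so a gene just outside was not a weak one.

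The CKO libraries were not equal for these genes. The level was higher in CKO B than in CKO A for 55 of 56 genes, and the median ratio of CKO B to CKO A was 2.11, from 0.944 to 3.75. The exception was G730013B05Rik, a noncoding RNA with 7 exons on chromosome 16, with 36 reads in CKO A and 30 in CKO B. The ratio was at least 1.5 for 52 genes. Over all genes with at least 20 reads in each CKO library the median ratio was 0.995, and 49.0% were higher in CKO B. The named genes within the same limits had a median ratio of 1.93, with 61 of 65 higher in CKO B. There is 1 library on each side, so the ratio has no replicate check.

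The imbalance was present on the X and on the autosomes. X-linked members had a median ratio of 2.09, with 8 of 8 higher in CKO B, and autosomal members 2.13, with 47 of 48. CKO A, the library with Y-linked reads, was thus the lower of the CKO libraries on the X and on the autosomes alike. Over the 24 genes with no copy elsewhere in the transcripts, a search described below, the median ratio was 2.02, with 23 of 24 higher in CKO B, and over the 32 with a copy it was 2.32. Dnmt1 stood at 78.1 CPM in CKO A and 29.5 CPM in CKO B, and whether this has a part in the ratio was not tested. In bulk libraries, fewer cells that read a gene and fewer transcripts in each cell cannot be told apart.

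**Figure D3:**
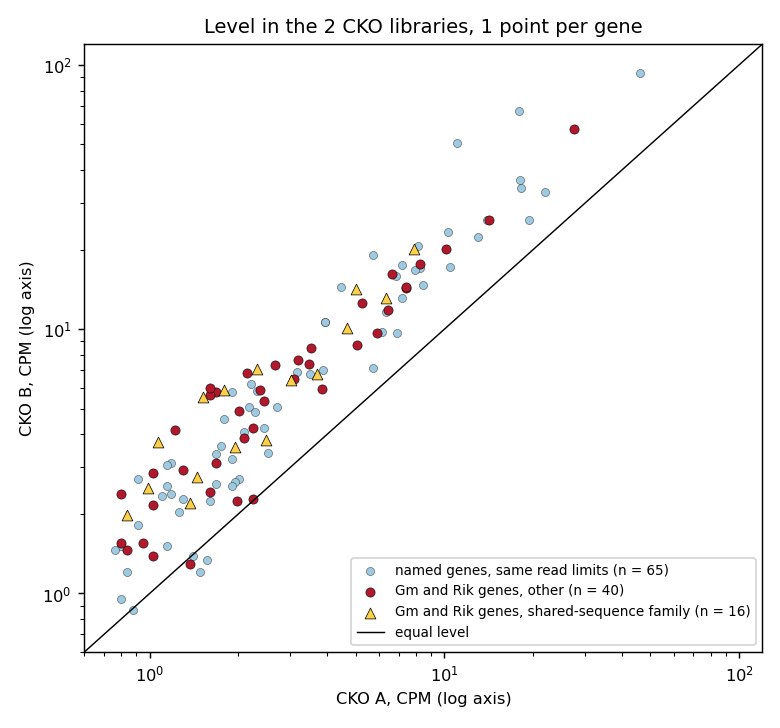
Level in CKO B against level in CKO A, in CPM on log axes, with 1 point per gene for the family of 16 genes linked by shared sequence (yellow triangles), the other 40 Gm and Rik genes (red) and the 65 named genes within the same read limits (blue). The line marks equal levels, and 55 of the 56 Gm and Rik genes lie above it.

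Many of the genes are not unique in sequence. For 32 of the 56, at least 150 bases of a transcript recur at 95% identity or more in another gene that does not overlap it, and for 24 they do not. The other Gm and Rik rows were not searched in this way, so there is no share to set beside it. Linking the genes that share such stretches in pairs gave 1 family of 16 and 1 pair. The 16 are B230220B15Rik, Gm10040, Gm29084, Gm37375, Gm38226, Gm38279, Gm42566, Gm42605, Gm42860, Gm43798, Gm43940, Gm44215, Gm44380, Gm45627, Gm49701 and Gm9864. They lie on 9 chromosomes, none on the X, and 10 are TEC entries and 11 have a single exon. Their median length was 848 bases against 1935 for the other 40 genes. All 16 were higher in CKO B than in CKO A, with a median ratio of 2.26.

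The family was built by linking pairs and no stretch was found in all 16 at these limits, and a member shared sequence with 1 to 12 of the others. Gm42860 is the longest of them, with 3992 bases, and had copies of parts of its sequence in 42 other genes. Gm44380 matched 20 other genes, 11 in the same orientation and 9 in the opposite one, on 8 chromosomes. Of those 20 genes, 5 are among the 56 and 13 of the other 15 were in the table. In 11 of these 13, untested genes included, both CKO libraries lay above both WT libraries in reads. Of all tested genes 27.7% did so in CPM, which is another unit and another kind of set. Only 6 of the 13 were tested, and all 6 were called higher, beside 4.85% of all tested genes. Of these 6, 4 had at most 12 WT reads and passed the filter through their CKO reads, so nothing is read from this count. No annotation of repeats was used here, so the sequence is given without an element's name. How reads that fit several copies were counted is not given in the sources used here, and reads of 1 locus may stand under several names.

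Parts of the members' sequences also lie in genes with ordinary names, which the rule did not use. In all, 46 genes outside the 56 share at least 150 bases with a family member. Of the 27 with Gm or Rik symbols, 9 were tested and 7 rose, with a median log2 change of 7.16 over the 9. Of the 19 with other names, 17 were tested, 7 rose and none fell, with a median of 0.12, where 4.85% of all tested genes rose and 2.75% fell. The list was found from the members' sequences, and a gene that passed the filter through its CKO reads had to be higher.

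The 7 named genes that rose differ in function. Noct, the circadian gene nocturnin, had 612, 814, 3791 and 7315 reads (log2 change 2.996, SE 0.445, adjusted p = 0.0402, edgeR), and its copy of the Gm42860 sequence runs over 3984 bases at 97.6% identity. Patj, a polarity protein gene, had 107, 80, 431 and 391 reads (log2 change 2.11, SE 0.23, adjusted p = 0.00369, edgeR) and shares 255 bases with Gm38226. The libraries of the genotypes do not overlap in either gene. Kif24, a kinesin gene, had 91, 101, 238 and 374 reads (adjusted p = 0.0170, edgeR), Wdr31 had 27, 30, 80 and 102 (adjusted p = 0.0267), and Slc38a6, of an amino acid transporter family, had 260, 299, 471 and 696 (adjusted p = 0.0458). Sirt5, a mitochondrial deacylase gene, had 110, 117, 209 and 208 reads (adjusted p = 0.0407), and Olfr784, an olfactory receptor gene, had 0, 0, 55 and 95 (adjusted p = 0.00482).

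The other 10 tested named genes were not called. Among them were Rab3gap1 with 958, 1230, 1170 and 1007 reads and D10Wsu102e with 1238, 1593, 1490 and 1110, although D10Wsu102e shares 3497 bases with Gm42860. Abhd2 and Lrrc8d, with 357 bases of the Gm49701 sequence each, had log2 changes of 0.09 and 0.04. A shared stretch therefore did not go with a call in every gene. Leaving out WT A gave log2 changes of 2.92 for Noct, 1.10 for Slc38a6, 1.73 for Kif24, 0.95 for Sirt5 and 1.72 for Wdr31. A fit with 1 library in a group holds no spread there, and no call is read from it. Whether these calls hold without 1 library is therefore not settled. DESeq2 did not call Sirt5 (adjusted p = 0.0690) and called Zfp575 (0.00255). Without WT B the log2 changes were 9.22 for Olfr784 and 1.83 for Patj, and without CKO B they were 8.73 and 2.10.

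**Figure D4:**
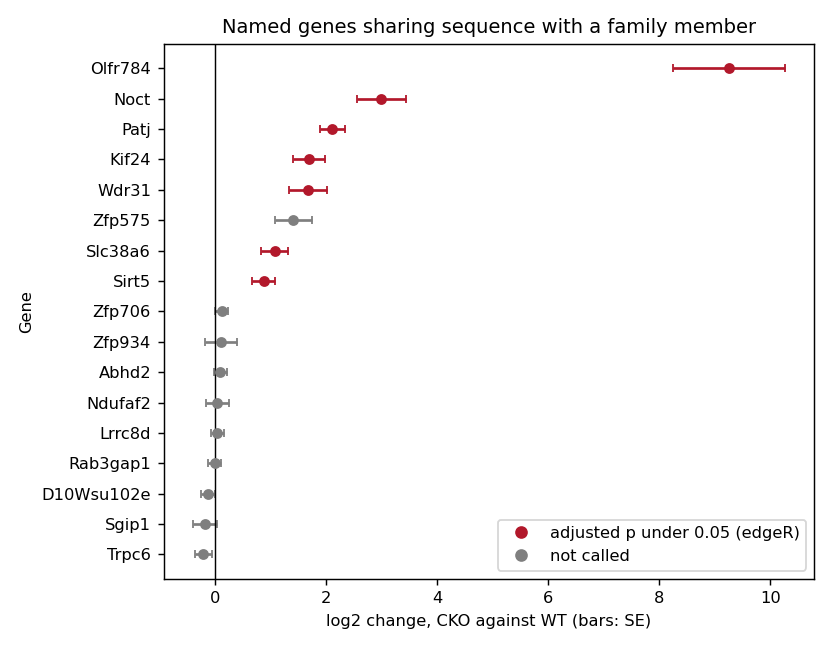
Fitted log2 change of CKO against WT, with its SE, for the 17 tested genes with ordinary names that share at least 150 bases with a family member, red where the adjusted p was under 0.05 in edgeR. The 7 red genes lie between 0.87 and 9.25, and no gene was called lower.

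The second family is a pair. Gm43549 on chromosome 3 (0, 0, 44 and 134 reads) and Gm47939 on chromosome 10 (0, 0, 42 and 131 reads) are noncoding RNAs of 2663 bases each in the table. Their reads were nearly the same in each library. A further copy, Gm42047, is 99.1% identical to Gm47939 over 2510 bases and had 521, 1396, 1336 and 3203 reads (adjusted p = 0.463, edgeR). A gene that holds a near-identical stretch was thus also read in WT. Whether those reads fell in the shared stretch is not known from counts per gene. Gm47761, with 484 bases of the sequence, had 8, 14, 97 and 199 reads and was called higher (log2 change 3.77, adjusted p = 0.00860, edgeR).

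Copies outside these families were of other kinds. Gm15930 is 98.3% identical to Gm10693 over 2037 bases and 95.9% identical to Pira2, a gene of the paired immunoglobulin-like receptors of leukocytes, over 2033 bases. Gm10693 had 0, 0, 4 and 25 reads and Pira2 had 2, 0, 0 and 0, so Pira2 was not read in the CKO. Of the leukocyte markers, Cd74 and Laptm5 were called higher in CKO, 2 of 5, beside 4.85% of all tested genes. Ptprc, Lyz2 and Cd68 were not called (log2 changes 0.77, 0.24 and -0.23). The 5 markers summed to 31.0, 40.6, 67.5 and 41.0 CPM in WT A, WT B, CKO A and CKO B, with none at 0 in every library. Their part in the level of Gm15930 was not tested. Gm11427 shares 487 bases with Slfn3 (4, 6, 16 and 38 reads, log2 change 2.44, adjusted p = 0.0696, edgeR). Gm14149 shares 318 bases with Gm47652, which had 2, 3, 280 and 771 reads and also shares 1287 bases with Gm9864 of the family.

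The X-linked members were a group of their own kind. Of the 9 coding entries among the 56, 7 lie on the X, and none of the 8 X-linked genes had a copy elsewhere. They are Gm6268 (0, 1, 27 and 66 reads), Gm9 (0, 0, 42 and 139), Gm364, 4930550L24Rik, Gm4779, 8030474K03Rik and Gm15262, with the processed pseudogene Gm371 (1, 0, 21 and 55) as the eighth. Their median length was 2717 bases, against 1314.5 for the autosomal members. Their median CKO level was 5.34 CPM against 3.79, but per length the order turned, with 1.83 RPKM against 3.47. Gm9 lies 2763 bases from Rhox1, a reproductive homeobox gene, which had 0, 0, 4 and 10 reads. Rhox1 was below the CKO limit while Gm9 was above it. Other Rhox genes of the X chromosome met the read limits, among them Rhox2d (0, 0, 151 and 166 reads) and Rhox6 (0, 0, 46 and 84). Rhox5 had 6, 9, 755 and 1446 reads, above the WT limit. The autosomal coding entries were Gm7579 on chromosome 7 and Gm6309 on chromosome 5 (0, 0, 22 and 34 reads), which has near-identical copies at Gm3409 and other genes.

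The named genes within the same limits include germline genes but are not a germline set. Hamp2 (0, 0, 92 and 157 reads), Apoh (0, 2, 50 and 134) and Olfr857 (0, 0, 57 and 118) are among these named genes. They include Dazl with 2, 0, 1208 and 2158 reads, which encodes a germ cell RNA-binding protein, and Tex101 with 0, 0, 103 and 246. Of 20 listed germline genes known to be silenced by promoter methylation, 16 were tested, 15 were called higher and none lower, with a median fitted log2 change of 6.73, beside 4.85% of all tested genes called higher. Of the 15, 9 meet the read limits themselves, and genes with few WT reads passed the filter through their CKO reads, so the count is a description. Mael (0, 0, 3 and 5 reads), Sycp3 (1, 2, 10 and 5), Tdrd1 (9, 9, 10 and 3) and Rpl10l (0, 0, 3 and 3) did not pass it. The list was chosen with earlier results of these data known. Its summed level was 1.71 and 2.15 CPM in WT A and WT B and 154 and 292 CPM in CKO A and CKO B, so that it was also higher in CKO B. In CPM, which is not corrected for length, Gm364 stood at 27.6 and 57.4 in CKO A and CKO B and Dazl at 46.0 and 93.1.

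Most genes around the 56 were not called. The nearest named protein-coding genes were 52 in number, at a median distance of 29820.5 bases. Of these 33 were tested, 3 rose and 2 fell, beside 4.85% of all tested genes called higher and 2.75% called lower. Within 10 kb there were 13 such genes, of which 8 were tested and 2 rose. Of the 3 that rose, Krtap5-3 and Abca13 passed the filter through their CKO reads, so nothing is read from these counts. The median log2 change of the 33 was 0.12.

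The 3 that rose were Krtap5-3, Steap4 and Abca13. Krtap5-3, a keratin-associated protein gene 8844 bases from Gm7579, had 0, 0, 15 and 24 reads (adjusted p = 0.0203, edgeR), and Gm7579 shares 254 bases at 95.3% identity with the related Krtap5-2. Steap4, a metalloreductase gene whose start lies 111 bases from that of Gm30835 on the other strand, had 55, 84, 157 and 269 reads (log2 change 1.65, SE 0.35, adjusted p = 0.0347, edgeR). Gm30835 itself had 0, 0, 101 and 138 reads. Leaving out WT A gave Steap4 a log2 change of 1.48, leaving out WT B 1.87, leaving out CKO A 2.08 and leaving out CKO B 1.10. Each of these fits has 1 library in a group, so no call is read from it. Abca13, a lipid transporter gene 21002 bases from Gm36954, had 0, 10, 86 and 98 reads (log2 change 4.20, SE 0.84, adjusted p = 0.0373, edgeR). Its log2 change was 4.41 without CKO A and 4.03 without CKO B. All its WT reads were in WT B, and leaving out that library moved the log2 change to 9.50. DESeq2 did not call Abca13 (adjusted p = 0.182), and limma-voom did not call Steap4 (0.0790). For Krtap5-3, leaving out WT A, WT B or CKO B gave log2 changes of 7.35, 7.28 and 6.87.

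The 2 neighbours that fell were Inpp5f and Nfia. Inpp5f, a phosphoinositide phosphatase gene 17985 bases from Gm45121, had 686, 891, 535 and 453 reads (log2 change -0.68, SE 0.13, adjusted p = 0.0206, edgeR). Nfia, a transcription factor gene 27191 bases from Gm12691, had 7365, 6665, 4744 and 4567 reads (log2 change -0.61, SE 0.14, adjusted p = 0.0435, edgeR). Inpp5f had a log2 change of -0.74 when WT A was left out and -0.59 when WT B was. That of Nfia was between -0.77 and -0.40 without any 1 library. No call is read from these fits, so whether either call holds without 1 library is not settled. With RLE size factors Nfia had an adjusted p of 0.0556 (edgeR). Med6, which contains Gm16570 and Gm16572, had 209, 250, 333 and 434 reads and was not called (adjusted p = 0.0696). Gm364 lies 7901 bases from Gpr101, which had 1 read in all libraries together. Gm29084 lies inside Pard3b on the other strand, and Pard3b had 685, 720, 682 and 836 reads and was not called.

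Overlap with other genes was the exception. Of the 56 genes, 45 overlap no other gene and 11 do, 5 of them in exons. B230220B15Rik overlaps exons of Ndufaf2 on the other strand (270, 305, 375 and 226 reads), and its own reads were 0, 1, 38 and 64. Gm38947 overlaps Gm45525, which had 0, 0, 0 and 3 reads. Gm42605 lies inside Fras1 on the same strand, and Fras1 had 1122, 1352, 1048 and 1465 reads, which were not called. Ndufaf2 was not called either, and Gm45525 had too few reads to be tested.

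RefSeq promoter windows could be matched by symbol for 17 of the 56 genes. They held 0 to 22 CpG with a median of 7, the same median as all 32851 windows, while Gm and Rik windows had a median of 4. The ratio of observed to expected CpG had a median of 0.435 against 0.384 for all windows and 0.237 for Gm and Rik windows. The richest window is the shared one of Gm4779 and 8030474K03Rik with 22 CpG, followed by Gm14149 with 15 and Gm30835 with 14. The poorest was Gm6309 with 0. Gm7579, with its TATAAA letters, had 1 CpG, so the annotated windows of the set include CpG-rich and CpG-poor sequence. Where transcription began in the CKO was not measured. A RefSeq start can also lie apart from the GENCODE one. The window of Gm28321 ends at base 50812524, and its GENCODE start is at 50815375 on the same strand. None of the data measure methylation.

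Motifs were searched by their letters on both strands. CACGTG occurred in 1 of 17 windows, that of Gm364 (5.88%), and in 7.15% of all windows. The longer TCACGTGA, which contains CACGTG, occurred in none and in 0.974% of all. The E2F-type letters GCGGGAA occurred in none and in 4.60% of all, and GGCGGGA, which can overlap GCGGGAA, in that of G730013B05Rik alone and in 11.3% of all. TATAAA occurred in that of Gm7579 alone and in 13.6% of all.

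**Figure D5:**
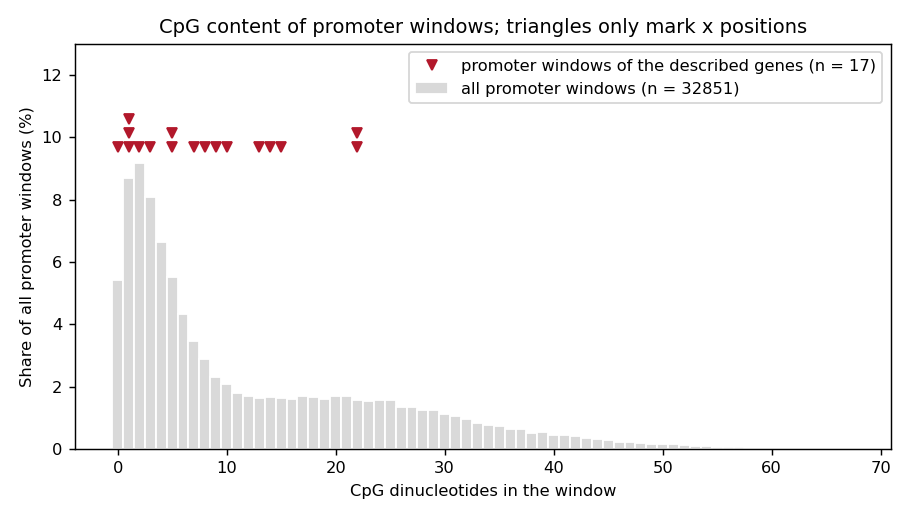
Share of all 32851 RefSeq promoter windows of 300 bases, in percent, by their number of CpG (grey bars), with the windows of the 17 matched genes marked by red triangles whose height has no meaning. The triangles run from 0 to 22 CpG.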

How the data were processed

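The authors deposited raw counts of reads per gene in 1 table, with a log2 fold change and p-values of their own comparison per the file headers. The submitters' processing notes name STAR, edgeR 3.28.1, Trimmomatic 0.36, cutadapt 2.5 and FastQC 0.11.8, and the build GRCm38.p6. The counting tool, its strand setting and its treatment of multiply mapped reads are not stated there. Columns named Control and Mutant were read as WT and CKO, and 4 further columns of per-sample values were not used. Whether the libraries stem from separate animals is only implied, so p-values measure the spread between libraries.

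All genes were fitted in R 4.3.3 with edgeR 4.0.16 (TMM, filterByExpr with a minimum count of 10, robust quasi-likelihood test, Benjamini-Hochberg over 15210 genes, threshold 0.05). The biological coefficient of variation was 0.160. Tested on simulated counts for 15278 genes, the fit recovered 62 of 100 genes changed 2-fold and 100 of 100 changed 4-fold, and called 8 of 15078 unchanged genes. The simulation gave every gene this same variation, without the imbalance seen between the CKO libraries, so these rates need not hold for the data. Coordinates and types came from GENCODE M21, for 31183 genes, and promoter windows from RefSeq. Transcripts were compared with BLAST+ 2.17.0, leaving out pairs of genes that overlap or lie within 1 kb. Depth ran from 23071657 to 26420648 reads, and intervals and floors cover counting error only.

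The genes and lists were chosen with earlier results of these data known. The rule for named genes took the 20 with the most CKO reads, those in runs, the 3 on each side of each limit, the coding entries, the longest and the shortest, those with overlapping exons, and near neighbours. The shared-sequence family, its pair and copies, G730013B05Rik and the 5 called neighbours were singled out after their values were seen. Alternatives were DESeq2 1.42.0, limma-voom (limma 3.58.1), RLE factors, library size alone, other filters and limits, and leaving out each library.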

Additional observations from a re-analysis of the deposited data

How the results depend on the processing

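The number of genes meeting the rule was 35 with 0 WT reads allowed and 16 with at least 100 reads in each CKO library. It was 61 to 87 when 1 library was left out, the highest without CKO A. Leaving out a library only loosens the rule and keeps all 56 genes, so this number could not fall. At an adjusted p under 0.01, 31 of the 56 were called higher and 241 genes in all. With no filter on low counts 2459 genes were called, and with 1 library left out 339 (without WT B) to 1842 (without CKO A). Within 2000 kb, 14 genes had a neighbour in the set. With 1 library left out, 10 to 19 did within 500 kb, a number that could likewise not fall. Of the 17 tested named genes that share sequence with the family, 2 to 8 rose when 1 library was left out, a setting chosen after seeing the data. The median CKO level was 2.25 CPM without CKO B and 5.85 CPM without CKO A, which is over 1.5 times from the reported value. Both were counted as having stayed, being under the SD between the CKO libraries. With 2 libraries, leaving 1 out shifts a gene's mean by less than their SD. That limit could therefore hardly be passed here, and nothing is read from its outcome. By these criteria (counts within 1.5 times, levels within 1 SD) 50 summary values stayed and 15 moved, and the criteria have no label for a reversal. Among the values for single genes, a change of sign without a call in a gene sharing sequence with the family counted as the same. Of the values for single genes 147 stayed the same, 38 lost a call and 5 gained one. Among the latter was Dnmt1, at -2.11 without CKO A and -0.72 without CKO B, each in a fit that holds no spread between CKO libraries. Other labels also come from fits with 1 library in a group, and no call is read from those. No paired analysis was possible because the count columns carry no replicate numbers. They begin with a number that WT A does not share with the others, and without WT A 68 genes met the rule. A WT count of 0 over both libraries allows up to 3 reads at this depth, so silence means below that limit.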
